A study of Mus musculus with 4 samples.

Results

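Type 1 conventional dendritic cells (cDC1) were followed in CD45-enriched cells of mouse mammary tumours under 4 treatments. A cell was counted as a cDC1 when it held at least 2 UMIs (unique molecular identifiers, which count captured mRNA molecules) of Xcr1 and Clec9a together and at least 5 of the MHC class II gene H2-Ab1. It also had to hold no UMI of Siglech, Cd3d, Cd3e or Cd3g, fewer than 5 of C1qa, C1qb and C1qc together, and not both Ccr7 and Fscn1. The cell limits were 200 or more genes and less than 20% of UMIs from mitochondrial genes, which 26435 cells passed, and 141 of these met the rule. They were 46 of 6095 cells from control, 58 of 5453 from phenformin, 26 of 6619 from poly I:C and 11 of 8268 from the combination.

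The tumours were grown from MT4788, a mouse mammary tumour line placed orthotopically into syngeneic FVB mice, with the genotype given as WT. Control had Saline+PBS, phenformin Saline+Phenformin, poly I:C Poly I:C+PBS and the combination Poly I:C+Phenformin. All 4 tumours were taken on day 4 and dissociated, and cells were enriched by magnetic beads for CD45, a pan-leukocyte protein. The enriched cells were over 90% CD45+ with no CD31 or EpCam, and 10000 per condition were loaded for 10x Genomics 3' libraries. The submitters name 4 tumours for the 4 conditions, while doses, schedule and the number of mice were not stated. Each treatment is 1 library, so differences between treatments have no replicate check, and no p-value is given for them. The intervals below are 95% intervals of counting error only.

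cDC1 take up dying cells and present their antigens on MHC class I to CD8 T cells, which is called cross-presentation. Xcr1 is the receptor for a chemokine that CD8 T and NK cells release, and Clec9a is a receptor for actin exposed by dead cells. The transcription factors Irf8 and Batf3 are needed for cDC1 to form, and Wdfy4 is needed for cross-presentation of cell-associated antigen. Poly I:C mimics the double-stranded RNA of viruses and is sensed by Tlr3, which cDC1 carry in endosomes, and by cytosolic sensors. It is known to induce type I interferon and the maturation of dendritic cells. Phenformin, a biguanide, blocks complex I, the NADH dehydrogenase of the mitochondrial respiratory chain.

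The promoters of 3 interferon-related genes whose levels are described below are shown first, since they differ in the interferon-stimulated response element, the sequence bound by interferon-activated factors. Each window runs from 250 bases before to 50 bases after the annotated start, 5′ to 3′ on the gene's own strand, from RefSeq on GRCm38.p6. Capitals mark the motif searched, GAAA, any 2 bases and GAAA again, found on either strand (TTTC in place of GAAA), with overlapping matches joined. Irgm1 (ENSMUSG00000046879), an immunity-related GTPase, is on the minus strand of chromosome 11 with its window at chr11:48871371-48871670, and holds 2 matches. Gbp2, a guanylate-binding protein, is on the plus strand at chr3:142620413-142620712 and holds 1. Ifitm1 (ENSMUSG00000025491), a membrane protein that restricts virus entry, is on the plus strand at chr7:140967826-140968125 and holds 0.
Irgm1: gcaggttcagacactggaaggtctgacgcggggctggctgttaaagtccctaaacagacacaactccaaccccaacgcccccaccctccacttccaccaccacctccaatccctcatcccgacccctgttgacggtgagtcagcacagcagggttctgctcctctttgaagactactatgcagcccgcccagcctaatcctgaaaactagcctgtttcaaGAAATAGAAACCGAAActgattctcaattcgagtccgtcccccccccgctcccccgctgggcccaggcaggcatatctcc
Gbp2: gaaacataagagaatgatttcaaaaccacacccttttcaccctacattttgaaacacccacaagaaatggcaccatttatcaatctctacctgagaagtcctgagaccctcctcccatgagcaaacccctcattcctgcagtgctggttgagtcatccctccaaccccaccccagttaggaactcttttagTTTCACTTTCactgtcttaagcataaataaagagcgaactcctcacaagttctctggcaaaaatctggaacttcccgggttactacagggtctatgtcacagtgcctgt
Ifitm1: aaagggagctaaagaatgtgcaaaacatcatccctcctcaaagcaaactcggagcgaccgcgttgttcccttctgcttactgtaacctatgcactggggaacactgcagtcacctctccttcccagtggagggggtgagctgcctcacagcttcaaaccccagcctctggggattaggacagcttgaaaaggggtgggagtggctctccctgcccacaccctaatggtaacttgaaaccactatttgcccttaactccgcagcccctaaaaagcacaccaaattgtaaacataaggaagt
Over the 2 interferon lists used below, 31 of the 53 genes with a promoter entry held the motif, or 58.5%, against 1079 of 27025 genes in all (3.99%). A match is a description of letters, not a site shown to be bound.

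The 4 libraries held between 6539 and 9303 barcodes, of which the 6095, 5453, 6619 and 8268 given above passed the cell limits. Their median UMI counts per cell were 6543, 8312, 8430 and 5902. Every set of 4 values here is in the order control, phenformin, poly I:C, combination. The cDC1 were deeper, with medians of 17600, 19649, 17712 and 13717 UMIs and a range of 2382 to 39334. Their sums were 819877, 1133403, 502074 and 172748 UMIs, so the combination is the least precise. Libraries shared 70 barcodes over all pairs, and no cDC1 barcode was found in another library. No doublet caller was applied. Levels are CPM, the UMIs of a gene per 1000000 UMIs summed over the cDC1 of a library.

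The label was checked on 12 cDC1 markers that the rule did not use: Irf8, Wdfy4, Batf3, Cadm1, Tlr3, Itgae, Snx22, Naaa, Ifi205, Ppt1, Rab7b and Gcsam. A cDC1 held a median of 9, 9, 10 and 9 of them. Wdfy4 reached 692, 497, 514 and 666 CPM, against 29.2 to 49.8 CPM in plasmacytoid dendritic cells, which were taken as cells with at least 2 Siglech UMIs. Irf8 reached 703, 503, 703 and 758 CPM and is shared with plasmacytoid cells, where it was 1777 to 2011 CPM. Itgae, the integrin chain CD103, was 420, 389, 351 and 376 CPM. Tlr3, the receptor for poly I:C, was 31.7, 24.7, 19.9 and 34.7 CPM, with UMIs in 9, 17, 6 and 2 cells. The defining markers were thus present in all 4 libraries, and Tlr3 was scarce in each.

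Not every cell that met the rule carried the other markers. Of the 141 cells, 109 held at least 7 of the 12, and 32 held 2 to 6. Of those 32, 10 came from control, 19 from phenformin, 1 from poly I:C and 2 from the combination. A list of 19 macrophage and monocyte genes made up a median of 0.776% of the UMIs of the 32 cells, up to 2.84%, and a median of 0.0617% of the UMIs of the 109. In phenformin the marker-poor cells had a median of 1.08%. Marker-poor cells that held macrophage transcripts were thus most frequent in the phenformin library. Because of this, levels in the 109 marker-rich cells are given beside the results that differ there, a set chosen after the data were seen.

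**Figure D1:**
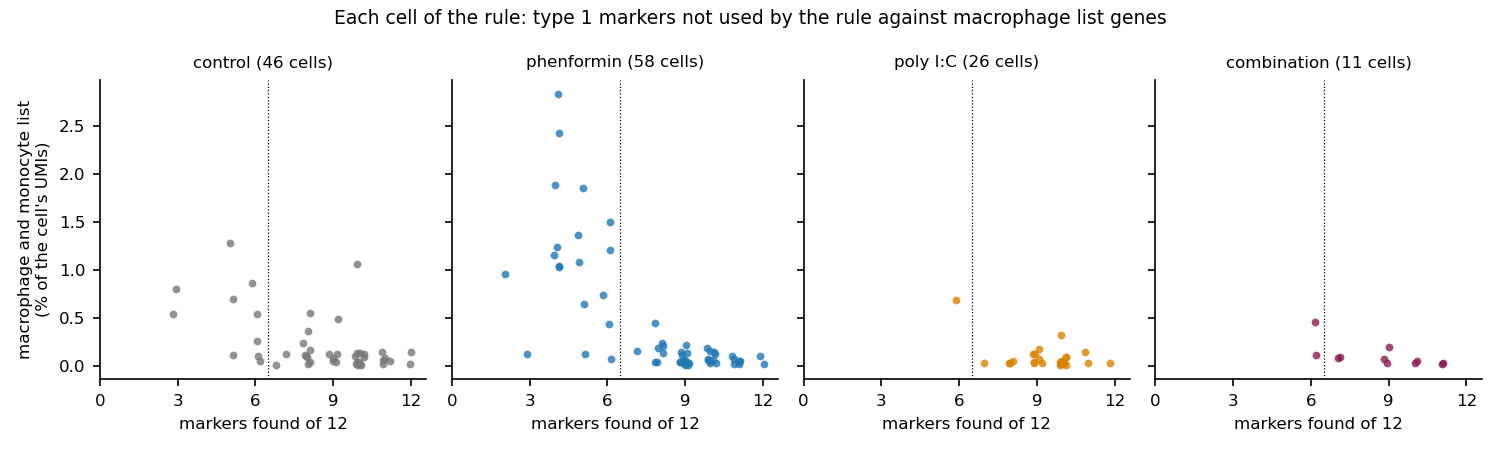
Each point is 1 of the 141 cells that met the cDC1 rule, by library. The horizontal axis counts how many of 12 cDC1 markers outside the rule had a UMI, with points spread slightly sideways, and the vertical axis gives the macrophage and monocyte list as a percent of the cell's UMIs. Right of the dotted line lie the 109 cells with at least 7 markers. The 19 phenformin cells left of it reached 2.84%.

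At the limit of 2 UMIs of Xcr1 and Clec9a, the 29 cells with exactly 2 held a median of 6 of the 12 markers and the 112 with 3 or more a median of 9. The 99 cells with 1 UMI that met every other limit held a median of 4, and 20 of these held at least 7. Marker lists of other cells were low in the cDC1 sums. The T and NK list summed to 63.4, 57.3, 49.8 and 11.6 CPM and the B cell list to 3.66, 2.65, 3.98 and 0 CPM. The plasmacytoid list summed to 74.4, 75.0, 61.7 and 52.1 CPM, against 7361 to 10348 CPM in plasmacytoid cells. The macrophage list summed to 2355, 4167, 970 and 1007 CPM, with 19, 18, 19 and 14 of its 19 genes detected. In the combination Adgre1, Arg1, Fcgr1, Pf4 and Trem2 were at 0. Over the marker-rich cells the list summed to 1446, 926, 702 and 668 CPM, so most of the excess in phenformin lay in the marker-poor cells. In plasmacytoid cells, whose rule had no C1q or Cd3 limit, it summed to 4076, 5416, 9493 and 8233 CPM. The neutrophil list there summed to 87.5, 254, 1378 and 1155 CPM. Levels in plasmacytoid cells below thus include transcripts of other cells.

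cDC1 were a smaller share of the recovered cells in both libraries that had poly I:C. The control share was 0.755% with an exact Clopper-Pearson interval of 0.553 to 1.01%. The phenformin share was 1.06% (0.809 to 1.37%), that of poly I:C 0.393% (0.257 to 0.575%) and that of the combination 0.133% (0.0664 to 0.238%). The ratio to control was 0.520 (0.309 to 0.860) for poly I:C and 0.176 (0.0823 to 0.345) for the combination. For phenformin it was 1.41 (0.941 to 2.12), an interval that holds 1. The combination was 0.339 (0.151 to 0.709) of poly I:C and 0.125 (0.0592 to 0.241) of phenformin. These are shares of bead-enriched cells and do not give numbers of cDC1 per tumour.

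The limit on C1q, complement genes of macrophages, left out a larger share of candidate cells in the combination than elsewhere. Of the cells with at least 2 UMIs of Xcr1 and Clec9a, 108, 91, 49 and 63, the rule kept 42.6%, 63.7%, 53.1% and 17.5%. The C1q limit alone left out 33, 13, 9 and 31 cells. Without it, cDC1 were 1.30%, 1.30%, 0.529% and 0.508%, and the ratio to control was 0.392 (0.263 to 0.577) in the combination and 0.408 (0.266 to 0.615) with poly I:C. With the limit and at least 7 of the 12 markers they were 0.591%, 0.715%, 0.378% and 0.109%, and the poly I:C ratio of 0.639 (0.368 to 1.1) then held 1. Without it but with at least 7 of the 12 markers, they were 0.788%, 0.789%, 0.453% and 0.254%. The ratios were then 1.0 (0.648 to 1.54) for phenformin, 0.576 (0.352 to 0.927) for poly I:C and 0.323 (0.183 to 0.549) for the combination. Both poly I:C-treated libraries had a lower share than control under each of these limits, and the ratio of the combination ranged from 0.176 to 0.392. Whether free RNA of macrophages or mixed droplets put C1q UMIs into those cells was not tested.

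Depth per cell differed too. With each cell thinned to 3000 UMIs before the rule was applied, which leaves out shallower cells, the shares were 0.297%, 0.337%, 0.0540% and 0.0485%. The order of the libraries was kept, while the poly I:C and combination values rest on 3 cells each.

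**Figure D2:**
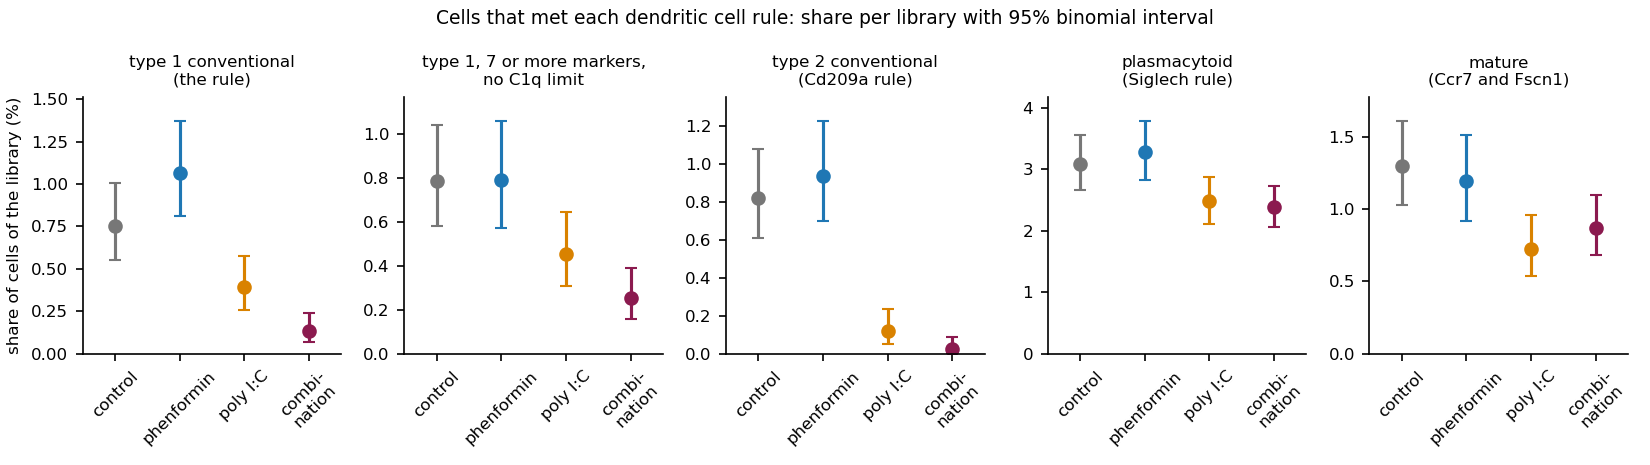
Shares of the cells that passed the cell limits, in percent, for cDC1 by the rule, cDC1 with at least 7 markers and no C1q limit, type 2 conventional, plasmacytoid and mature dendritic cells. Bars are exact 95% binomial intervals of 1 library each. cDC1 were 0.755%, 1.06%, 0.393% and 0.133% of the 4 libraries, and type 2 cells had 50, 51, 8 and 2 cells.

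Among other dendritic cells, type 2 conventional cells (cDC2), taken by at least 2 UMIs of Cd209a and none of Xcr1 and Clec9a with the other limits unchanged, were 50, 51, 8 and 2 cells. For poly I:C their ratio to control was 0.147 (0.0603 to 0.313). For the combination it was 0.0295 (0.00348 to 0.112). Plasmacytoid cells, at 188, 179, 164 and 197, had ratios of 0.803 (0.647 to 0.996) and 0.772 (0.629 to 0.948). Mature dendritic cells, with both Ccr7 and Fscn1, were 79, 65, 48 and 72. Their ratio to control was 0.559 (0.382 to 0.811) for poly I:C, near the 0.520 of cDC1. For the combination the mature cell ratio was 0.672 (0.481 to 0.937). cDC1 made up 12.7%, 16.4%, 10.6% and 3.90% of the cells of these 4 rules. By these unlike rules, cDC1 and cDC2 were further below control than plasmacytoid and mature cells in the combination. Without the C1q limit the cDC1 ratio there was 0.392, and cDC2 were not counted without it. The difference between kinds was not tested, with 1 library per treatment.

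cDC1 were next compared with cDC2 of the same libraries, the only comparison here that has replicates. UMIs were summed per kind and library, and edgeR's quasi-likelihood test was run with the library as a block. The 4 pairs differ in treatment, so treatment adds to the spread. The p-values measure only the spread between these 8 sums, of which the cDC2 of poly I:C and combination hold 8 and 2 cells. The cDC2 were named by Cd209a alone. The macrophage list in them summed to 3672, 4048, 3496 and 3419 CPM, and Flt3 was 35.7, 28.6, 0 and 0 CPM. Whether macrophages or monocytes are among them was not tested. Taken by Cd209a and Flt3 instead, they were 12, 13, 0 and 1 cells, so that alternative has no poly I:C pair. The cells were chosen by Xcr1, Clec9a and Cd209a, and those genes and the other rule genes are left out as results. Of 5172 genes tested, 356 (6.88%) were higher and 417 (8.06%) lower in cDC1 at a Benjamini-Hochberg adjusted p under 0.05.

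The genes furthest up in cDC1 included Cd207 (langerin, a C-type lectin), which was 129, 156, 59.8 and 34.7 CPM in cDC1 and 0 in all 4 cDC2 sums (edgeR quasi-likelihood test, adjusted p = 6.7e-11). Ffar4, a receptor for long-chain fatty acids, was 39.0, 53.8, 37.8 and 69.5 CPM against 0 in every cDC2 sum (adjusted p = 1.7e-07). Asb2 and Ttc39a were likewise at 0 in each cDC2 sum. The cDC2 sum of the combination held only 18429 UMIs from 2 cells, so a 0 there says little for genes at these levels. Itgae was higher by 6.33 log2 units (SE 0.36, edgeR adjusted p = 3.5e-15). Bcl2l14, of the Bcl2 family, and the replication fork gene Timeless were also among the 10 highest.

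Of 21 tested genes of the cDC1 identity list, 18 were higher and 1 was lower, with a median log2 fold change of 2.26 against 0.04 over all genes tested. The list holds markers known to separate the kinds, and Flt3 or Irf8 are not exclusive to cDC1. Ppt1, a lysosomal thioesterase, was 989, 917, 715 and 1366 CPM against 66.5, 62.9, 27.8 and 54.3 in cDC2 (log2 4.03, edgeR adjusted p = 2.1e-14). Rab7b, of late endosome transport, differed by 4.2 and Cadm1, an adhesion molecule, by 4.17 log2 units. Tlr3 differed by 4.11 (SE 0.66, edgeR adjusted p = 1.9e-05), from a low level in both kinds. Btla, an inhibitory receptor, was higher by 3.01. Flt3, the growth factor receptor that maintains dendritic cells, was higher by 2.23, and Irf8 by 1.70 (SE 0.30, edgeR adjusted p = 6.9e-05). Irf8 missed the threshold without the control library, at 1.29 log2 units. With cDC2 taken by Cd209a and Flt3, Flt3 turned to -0.14, a gene that this rule itself uses, and Wdfy4 went from 1.44 to 0.46, no longer past the threshold.

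Genes furthest down in cDC1 were Cd209d, a C-type lectin of the Cd209 family, at 0, 0.882, 0 and 0 CPM against 618, 466, 315 and 109, and S100a4, a calcium-binding protein, at 41.5, 75.9, 53.8 and 0 against 1320, 2209, 2485 and 2930. Ms4a4c was lower by 5.20 log2 units. Mrc1, the mannose receptor, was lower by 5.16. Of 9 tested members of the cDC2 list 7 were lower and 2, Clec12a and Plet1, were higher. Clec12a, an inhibitory lectin receptor, was 89.0, 99.7, 87.6 and 174 CPM against 24.3, 11.4, 18.5 and 0 (log2 2.48, edgeR adjusted p = 1.5e-06), and Plet1, a surface glycoprotein, was higher by 0.99 log2 units, in 3 of 4 libraries. Plet1 missed the threshold without the control library, at 0.80 log2 units. Clec10a, a lectin for terminal galactose, was 135, 135, 185 and 23.2 CPM against 1319, 1206, 881 and 4558, a log2 fold change of -3.42 (SE 0.31, edgeR adjusted p = 2.2e-10).

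Interferon-stimulated genes split between the kinds. In the type I interferon list 5 of 32 tested genes were higher and 9 lower in cDC1, with a median of -0.13. Ifitm3, which blocks virus entry, was 279, 314, 319 and 179 CPM in cDC1 and 1781, 1563, 3941 and 5535 in cDC2 (log2 -3.15, SE 0.24, edgeR adjusted p = 8.0e-12). Ifitm1 differed by -3.13, Ifi27l2a by -1.45 and Slfn2 by -1.16 log2 units, and Slfn2 was not past the threshold with cDC2 taken by Cd209a and Flt3 (-0.79). The difference was present in each of the 4 libraries for all of these genes. In the other direction Psmb9, the immunoproteasome subunit, was 1366, 973, 1203 and 1192 CPM against 470, 347, 686 and 488 (log2 1.36, edgeR adjusted p = 6.1e-06). MHC class I loading genes had 2 of 23 higher and 0 lower. That is near the 6.88% of all tested genes that were higher, so it is not read as a trait of cDC1. Of 21 NF-kB pathway genes 0 were higher and 14 lower, with a median of -1.22, the mature dendritic cell list 0 of 14 higher and 9 lower, and proliferation genes 7 of 22 higher and 0 lower.

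**Figure D3:**
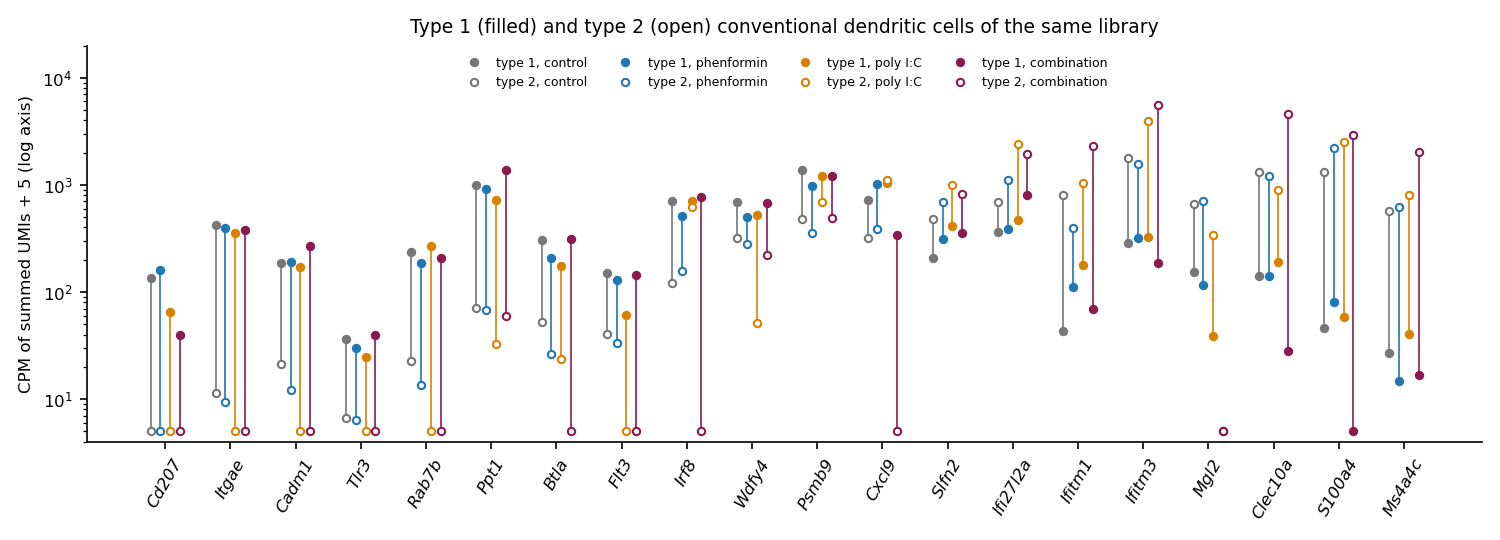
Levels of 20 genes in cDC1 (filled) and cDC2 (open) of each library, as CPM plus 5 on a log axis. Cd207, Itgae, Cadm1 and Ppt1 are higher in cDC1 in all 4 libraries, and Ifitm1, Ifitm3, Clec10a and S100a4 higher in cDC2 in all 4.

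The treatments were compared within cDC1 by the ratio of CPM, with the exact interval that is conditional on the total count. A gene was compared when the higher library had at least 50 CPM and 30 UMIs, which comes to 59.8 CPM for poly I:C and 174 CPM for the combination. It was counted as higher or lower at 2-fold or more with an interval that leaves out 1. Gene lists use 1.5-fold. The comparisons of single treatments and combination with control share the control library, so their values are given side by side only.

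Poly I:C over control had 42 of 2689 compared genes higher (1.56%) and 130 lower (4.83%). The genes furthest up included the cell cycle genes Ccnd2 and Cdk6, the nuclear lamin Lmna and Ifitm1. Lower genes included some known from macrophages, such as Mmp12 and Ccl24, and, among cDC1 genes, Flt3 and the class II modulators H2-Ob and H2-Oa. Of the proliferation genes 6 were higher and 0 lower, and the median of the type I interferon list was level with control on day 4.

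Ccnd2, the cyclin D that starts G1 progression, was 52.4, 106, 285 and 104 CPM. It was 5.43-fold (3.84 to 7.83) of control with poly I:C. Its partner kinase Cdk6 was 12.2, 29.1, 73.7 and 40.5 CPM, or 6.04-fold (2.95 to 13.6). Both were highest with poly I:C and lowest in control. In plasmacytoid cells Ccnd2 was 355, 289, 240 and 215 CPM, with poly I:C below control there. Lmna, which encodes nuclear lamins A and C, was 87.8, 154, 309 and 197 CPM, a ratio of 3.52 (2.64 to 4.72). Among the marker-rich cells the log2 ratios of these genes were 2.28, 2.67 and 1.85, close to 2.33, 2.19 and 1.76 over all cDC1.

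Cycling cells were counted as those with 3 or more UMIs of 8 genes of the division cycle. They were 9 of 46, 9 of 58, 10 of 26 and 1 of 11 cDC1. With every cell thinned to 5000 UMIs they were 6 of 44 (13.6%), 4 of 56 (7.14%), 7 of 26 (26.9%) and 1 of 11 (9.09%). The 31 proliferation genes summed to 2811, 1656, 4091 and 1221 CPM. With poly I:C 6 of 14 compared members were at least 1.5-fold higher and 0 lower, with a median log2 ratio of 0.53. Over all genes compared the median was 0.00, with 8.0% higher and 10.3% lower past 1.5-fold. Hist1h1b, a linker histone of S phase, was 190, 37.1, 426 and 11.6 CPM and 2.24-fold (1.81 to 2.77) of control. Ube2c, of the mitotic ubiquitin ligase, was 72.0, 60, 139 and 0 CPM. Rrm2, the ribonucleotide reductase subunit for DNA synthesis, was 2.04-fold (1.15 to 3.65). These transcripts sat in few cells, with Ube2c UMIs in 8, 7, 6 and 0 of them.

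Interferon genes did not move together. The type I interferon list of 49 genes summed to 6063, 5952, 6153 and 6825 CPM. With poly I:C 3 of 19 compared members were higher and 1 lower, with a median of 0.02. Slfn2, a schlafen of immune cells, was 201, 307, 410 and 347 CPM, or 2.04-fold (1.65 to 2.52) with poly I:C. Ifitm1 was 37.8, 107, 173 and 63.7 CPM, or 4.58-fold (3.01 to 7.15). Its UMIs lay in 7, 13, 9 and 2 cells. Among the marker-rich cells it was 45.2, 149.8, 181 and 6.62 CPM, so that the combination lay above control over all cDC1 and below it there. Samhd1, which degrades deoxynucleotides, was 742, 709, 442 and 330 CPM, lower with poly I:C at 0.596-fold (0.509 to 0.696). In the marker-rich cells Samhd1 was 523, 439, 385 and 371 CPM. Its log2 ratio with poly I:C was -0.44 there, short of 1.5-fold. Irf7, which amplifies type I interferon, was 128, 119, 87.6 and 185 CPM and did not pass 1.5-fold with poly I:C. In plasmacytoid cells Irf7 was 217, 232, 479 and 657 CPM, higher in both poly I:C-treated libraries.

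Of the interferon-gamma and GTPase list 3 of 12 compared genes were higher with poly I:C and 1 lower, with a median of 0.34. Irgm1, whose promoter holds 2 motif matches above, was 54.9, 67.9, 133 and 110 CPM, or 2.43-fold (1.64 to 3.63). Iigp1, another immunity-related GTPase, was 75.6, 108, 185 and 110 CPM, or 2.45-fold (1.76 to 3.43). Serpina3g, a serine protease inhibitor, was 168, 168, 265 and 127 CPM. Gbp2 went the other way, at 250, 262, 151 and 63.7 CPM. Irgm1 and Iigp1 kept log2 ratios of 1.20 and 1.24 in the marker-rich cells, and Gbp2 went from -0.71 to -0.31. In both sets the immunity-related GTPases and Gbp2 lay on opposite sides of control. With both Xcr1 and Clec9a required, Gbp2 was level with control, at 0.047.

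cDC1 receptors and class II genes were lower with poly I:C in part. Flt3 was 145, 125, 55.8 and 139 CPM, a ratio of 0.384 (0.245 to 0.584), lowest with poly I:C and level in the other 3. In plasmacytoid cells Flt3 was 194, 175, 120 and 132 CPM. H2-Ob, a chain of the class II peptide-loading inhibitor H2-O, was 69.5, 60, 21.9 and 52.1 CPM, or 0.315-fold (0.149 to 0.607), and its partner H2-Oa 111, 90.9, 53.8 and 98.4 CPM, or 0.485-fold (0.303 to 0.752). Both chains of H2-O were lowest with poly I:C. Among the marker-rich cells H2-Ob was 76.8, 79.9, 22.9 and 46.3 CPM and H2-Oa 127, 122, 56.2 and 66.2 CPM, so H2-Oa in the combination lay near control over all cDC1 and near poly I:C there. Btla was 301, 203, 169 and 307 CPM, or 0.562-fold (0.434 to 0.722). cDC1 identity genes had 1 of 18 higher and 3 lower with poly I:C, among them Rab43, a regulator of cross-presentation, at 56.1, 33.5, 27.9 and 11.6 CPM. Rab43 was also the 1 of 18 lower with phenformin and the 1 of 15 lower in the combination, with 0 higher in both. Of MHC class II genes 0 of 12 were higher and 3 lower, with a median of -0.28. The invariant chain Cd74 was 19991, 18132, 16942 and 19456 CPM. Of MHC class I loading genes 0 of 19 were higher and 1, the tapasin gene Tapbp, was lower at 0.630-fold (0.497 to 0.794). The class I heavy chain H2-K1 was 2746, 2766, 1946 and 2761 CPM, 0.709-fold (0.657 to 0.764) with poly I:C. H2-Oa, H2-Ob, Cd74, Tapbp and H2-K1 each had their lowest level with poly I:C alone.

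Of genes that activate T cells, Cd40, the receptor for helper signals, was 41.5, 36.2, 85.6 and 11.6 CPM, or 2.07-fold (1.29 to 3.34) with poly I:C. Without cells that held any Ccr7 or Fscn1, Cd40 turned to a log2 ratio of -0.44, so its higher level rests on cells with some maturation transcript. Cd86, a ligand of CD28, was 277, 265, 275 and 208 CPM, and Cd80 22, 18.5, 17.9 and 23.2 CPM, with intervals of every ratio to control that hold 1. Il12b, the interleukin-12 subunit that drives type 1 responses, was 1.22, 0, 15.9 and 0 CPM, with UMIs in 1, 0, 2 and 0 cells, too few to compare. Cxcl9, which attracts T cells through CXCR3, was 712, 1020, 1034 and 336 CPM. Its ratio of 1.45 (1.29 to 1.64) with poly I:C is 0.53 on the log2 scale, and was 0.15 among the marker-rich cells. Cxcl10 was 29.3, 0.882, 0 and 92.6 CPM, with all combination UMIs in 1 cell. Of the NF-kB pathway and feedback genes 0 of 14 were higher and 6 lower, with a median of -0.44. The list summed to 2760 CPM in control and 2555 CPM with poly I:C. In the marker-rich cells these sums were 2456 and 2511 CPM, so the direction of the sum was not kept.

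The 8 genes furthest down with poly I:C included several known from macrophages. The elastase Mmp12 was 217, 480, 9.96 and 5.79 CPM, the cystine transporter Slc7a11 61.0, 195, 1.99 and 0 CPM, and the eosinophil chemokine Ccl24 213, 1150, 23.9 and 11.6 CPM. Among the marker-rich cells they were 3.01, 3.74, 2.08 and 6.62 CPM for Mmp12, 3.01, 13.7, 0 and 0 CPM for Slc7a11, and 3.01, 12.5, 25.0 and 13.2 CPM for Ccl24. Ccl24 thereby turned from a log2 ratio of -2.92 to 1.90. Others stayed lower in both sets. Dcstamp, a fusion protein of dendritic cells and osteoclasts, was 143, 151, 19.9 and 0 CPM, and 82.9, 25.0, 10.4 and 0 in the marker-rich cells. Cd14, the co-receptor for lipopolysaccharide, was 765, 982, 247 and 521 CPM, and 580, 448, 183 and 192 CPM in the marker-rich cells. The macrophage list moved with these genes, and its part in them was not tested. Apoe, a lipid carrier of macrophages, moved the other way, at 17.1, 36.2, 71.7 and 69.5 CPM. In plasmacytoid cells, which should lack it, it was 134, 311, 2309 and 1847 CPM, and in all cells 951, 2198, 5803 and 3758 CPM. The cDC1 level was below that in plasmacytoid cells in every library, and no difference is read from it.

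Metabolic genes under poly I:C were lower for glycolysis and hypoxia, with 1 of 19 compared higher, 6 lower and a median of -0.27. Over all genes 8.0% were higher and 10.3% lower past 1.5-fold. The list summed to 6201 CPM in control and 5019 CPM with poly I:C. In the marker-rich cells it summed to 5329 and 4869 CPM, a smaller difference. The lactate exporter Slc16a3 was 143, 123, 27.9 and 11.6 CPM, or 0.195-fold (0.104 to 0.341). Among nuclear genes of complex I, 2 of 36 were higher and 0 lower, with a median of 0.19, with Ndufa9 at 1.66-fold (1.15 to 2.40). Mitochondrially encoded genes summed to 38219, 37538, 26877 and 32950 CPM, lowest with poly I:C, although only 1 of 11 compared was 1.5-fold lower. The stress-induced inhibitor of mTORC1, Ddit4, was 43.9, 74.1, 118 and 52.1 CPM, or 2.68-fold (1.74 to 4.17).

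**Figure D4:**
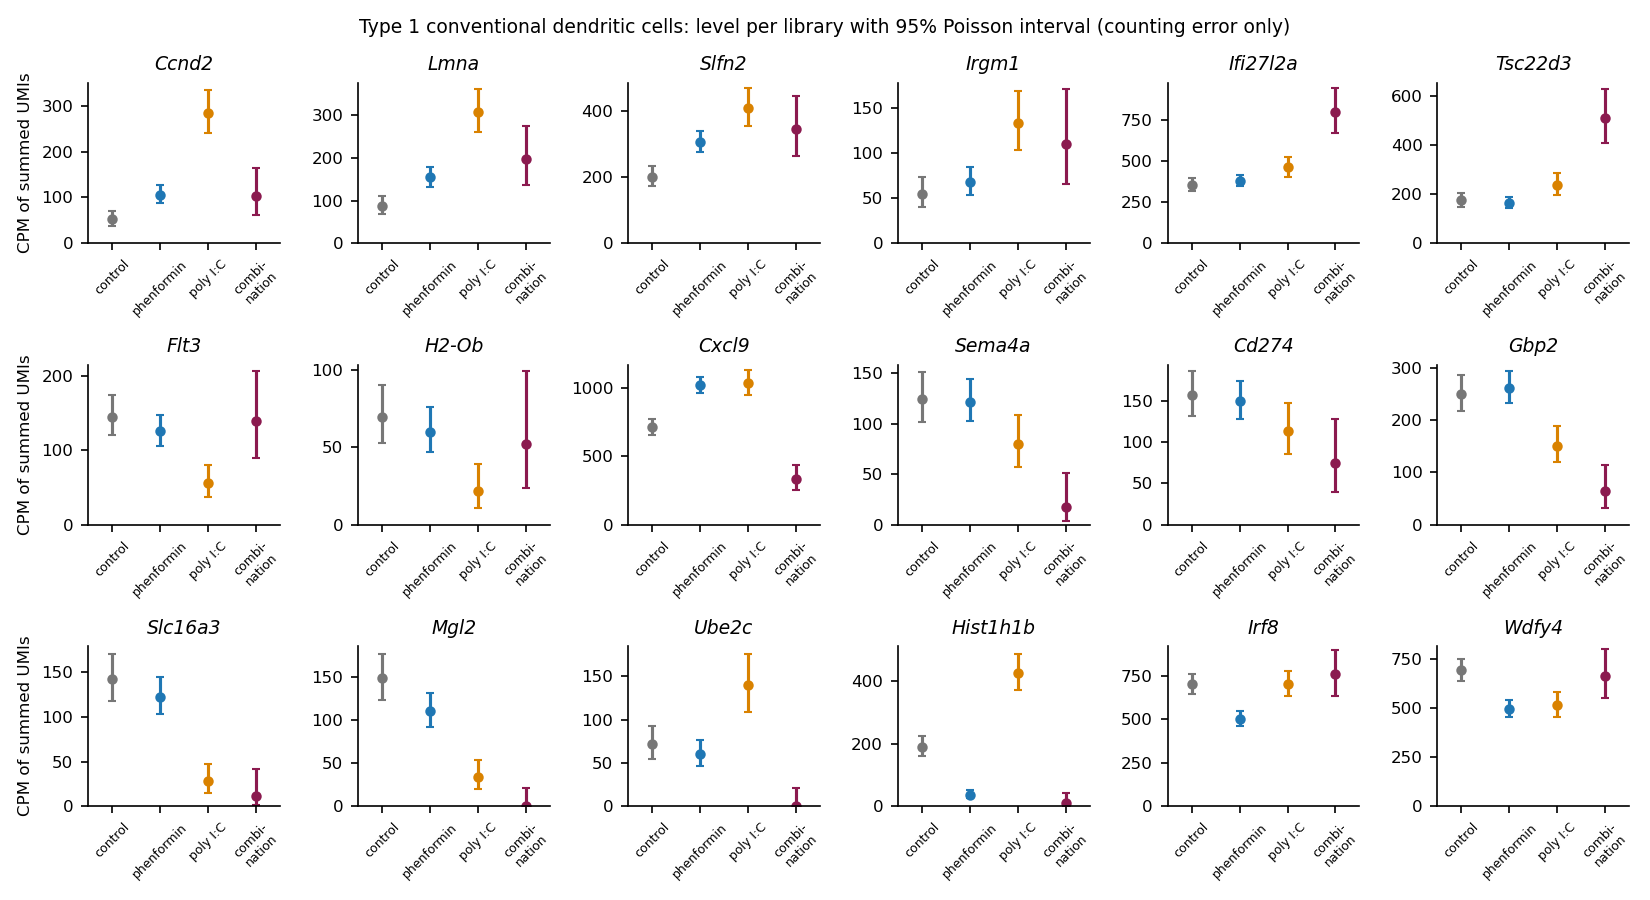
Levels of 18 genes in cDC1 of each library, in CPM, with exact 95% Poisson intervals of counting error. Ccnd2, Lmna and Slfn2 are highest with poly I:C, Flt3 and H2-Ob lowest there, Tsc22d3 and Ifi27l2a highest and Cxcl9, Sema4a and Gbp2 lowest in the combination. Irf8 is lowest with phenformin, and Wdfy4 is low with phenformin and with poly I:C, at 497 and 514 CPM.

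Phenformin over control had the fewest differences, with 54 of 2833 compared genes higher (1.91%) and 25 lower (0.882%). Genes furthest down included several of cell division, and genes furthest up several known from macrophages. In the marker-rich cells the split turned to 22 higher and 39 lower, with 28 of the 79 genes shared. The division genes named below were lower in both sets of cells, and the macrophage receptors named below were higher over all cDC1 and lower in the marker-rich cells.

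Of the proliferation list 8 of 14 compared genes were lower with phenformin and 1 was higher, with a median of -0.68. Over all genes the median was 0.02, with 5.79% higher and 4.27% lower past 1.5-fold. Top2a, the topoisomerase of dividing cells, was 154, 28.2, 191 and 23.2 CPM, or 0.184-fold (0.121 to 0.273) with phenformin. Hist1h1b was 0.195-fold (0.135 to 0.275), and the mitotic kinase Cdk1, at 57.3, 20.3, 69.7 and 28.9 CPM, was 0.354-fold (0.205 to 0.595). In the marker-rich cells the log2 ratios of Top2a, Hist1h1b and Cdk1 were -2.24, -2.10 and -1.14, against -2.26, -2.22 and -1.30 over all. UMIs of Top2a lay in 12 cells of each of these 2 libraries.

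Hebp2, a heme-binding protein, was 53.7, 7.06, 5.98 and 28.9 CPM, lowest under both single treatments. The heat shock genes Hspa1a and Hspa1b, which respond to tissue dissociation, were 69.5, 24.7, 89.6 and 5.79 CPM and 58.5, 20.3, 73.7 and 0 CPM, from 3 or 4 cells in each library but the combination. Ccl22, a chemokine of mature dendritic cells, was 85.4, 17.6, 17.9 and 5.79 CPM. Within the marker-rich cells it was 10.5, 20, 18.7 and 6.62 CPM, so the control excess lay in marker-poor cells.

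Genes higher with phenformin included the matrix gene Fn1, which was at 0 in control and 56.5 CPM with phenformin, at least 15.4-fold higher by a floor of 3 counts. Creb5, a transcription factor, was 14.6, 99.7, 27.9 and 0 CPM, Inhba, an activin chain, 6.10, 52.9, 9.96 and 0 CPM, and the neutrophil chemokine Cxcl2 101, 486, 73.7 and 110 CPM. Restricted to the marker-rich cells, Fn1 was 0, 1.25, 2.08 and 0 CPM, Creb5 6.03, 8.74, 22.9 and 0 CPM, and Cxcl2 115, 169, 37.5 and 126 CPM. The macrophage receptor Csf1r, the inhibitory receptor Sirpa and the Fc receptor Fcgr2b were 2.50-fold, 2.15-fold and 2.91-fold. Among the marker-rich cells each of these 3 was lower with phenformin than in control, at log2 ratios of -0.46, -1.98 and -1.04. Of the macrophage list 6 of 10 compared genes were higher and 1 lower. Ccl4, a chemokine for T cells, was 12.2, 95.3, 11.9 and 17.4 CPM, and turned to -0.19 without cells that held any Ccr7 or Fscn1.

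Some genes higher with phenformin kept their direction in the marker-rich cells. Ifitm1 was 2.82-fold (1.89 to 4.34), with log2 ratios of 1.38 over all cDC1 and 1.62 there. Ddit4 was 1.69-fold (1.13 to 2.57), with 0.69 and 1.15. Hk2, the first enzyme of glycolysis, was 26.8, 52.9, 31.9 and 34.7 CPM, or 1.97-fold (1.19 to 3.38), with 0.86 and 0.57. Slfn2 was 1.53-fold (1.26 to 1.85), and its log2 ratio in the marker-rich cells was 0.33, short of 1.5-fold. The early response gene Zfp36, which speeds mRNA decay, was lower at 0.622-fold (0.530 to 0.730), with a log2 ratio of -0.74 in the marker-rich cells.

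Complex I, the target of phenformin, had 1 of 36 compared nuclear genes higher and 0 lower, with a median of 0.18. These genes summed to 6980, 7858, 7847 and 7016 CPM. Of the mitochondrially encoded genes mt-Nd3, a complex I subunit, was 229, 355, 191 and 151 CPM, or 1.55-fold (1.30 to 1.85), the 1 of 11 that passed. The glycolysis and hypoxia list had 2 of 21 higher, 0 lower and a median of 0.26, and summed to 6201 and 7105 CPM in control and phenformin. Over the marker-rich cells these sums were 5329 and 5146 CPM, so the direction was not kept. The integrated stress list had 1 of 9 higher and 0 lower. Transcripts of these pathways thus lay close to control.

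Identity and presentation genes with phenformin differed by less. Irf8 was 0.716-fold (0.636 to 0.805) and Wdfy4 0.718-fold (0.638 to 0.809) of control. In the marker-rich cells the log2 ratios were -0.35 and -0.20, against -0.48 and -0.47 over all cDC1. Irf8 and Wdfy4 are themselves among the markers by which the marker-rich cells were chosen. Their ratios in that set are therefore no independent check, and nothing is read from the smaller differences there. MHC class I loading had 0 of 19 past 1.5-fold in either direction, and class II 1 of 13 higher and 0 lower. Pdcd1lg2, the checkpoint ligand PD-L2, was 68.3, 126, 79.7 and 23.2 CPM, or 1.85-fold (1.35 to 2.56), and its log2 ratio of 0.84 was 0.26 in the marker-rich cells. Cd274, which encodes PD-L1, was 157, 150, 114 and 75.3 CPM, level between control and phenformin.

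The combination over control had 13 of 1842 compared genes higher (0.706%) and 189 lower (10.3%). The low count of higher genes depends on depth, since a gene needed 174 CPM to be compared as higher in the combination and 50 CPM in control. The median log2 ratio over all compared genes was -0.25, and list medians are to be read beside it. Genes furthest up were Tsc22d3, Commd8, Hspd1, Sdf2l1 and Ifi27l2a. Proliferation genes, Mgl2 and Clec10a, and the T cell-attracting Cxcl9 were among the lower ones.

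Tsc22d3, the glucocorticoid-induced leucine zipper, was 174, 164, 237 and 509 CPM, with UMIs in all 11 combination cells. It was 2.92-fold (2.21 to 3.84) of control, 2.15-fold (1.61 to 2.86) of poly I:C and 3.1-fold (2.38 to 4.02) of phenformin. In plasmacytoid cells it was 242, 207, 282 and 322 CPM. Commd8, of the COMMD family, was 68.3, 69.7, 75.7 and 179 CPM, 2.63-fold (1.64 to 4.15) of control. Both were highest in the combination alone, and in the marker-rich cells their log2 ratios to control were 1.58 and 1.27. Ifi27l2a, an interferon-induced gene, was 355, 380, 462 and 799 CPM, or 2.25-fold (1.82 to 2.77). In plasmacytoid cells it was 1226, 1288, 2036 and 2201 CPM, and in all cells 969, 1091, 1160 and 1687 CPM, so its level in cDC1 was below theirs in each library. The mitochondrial chaperone Hspd1 was 117, 173, 217 and 284 CPM and Sdf2l1, of the endoplasmic reticulum, 151, 199, 245 and 347 CPM. Atf4 and Xbp1, transcription factors of the stress responses, were 90.3, 113, 141 and 174 CPM and 174, 221, 257 and 278 CPM, with ratios of 1.92 (1.22 to 2.98) and 1.59 (1.12 to 2.22). For these last 4 genes, phenformin and poly I:C alone lay between control and the combination.

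Of the proliferation list 10 of 11 compared genes were lower in the combination, where 3.47% of all genes were higher and 13.8% lower past 1.5-fold. The median was -2.49, and -2.05 with the 4 genes at 0 put at their bound of 3 counts. Ube2c and Birc5, which encodes survivin, were at 0 in the combination, against 72.0 and 64.6 CPM in control. By a floor of 3 counts they were at most 0.241-fold and 0.269-fold. In the combination 1 of the 11 cells was cycling. Over poly I:C, 11 of 1667 compared genes were higher (0.66%) and 132 lower (7.92%) past 2-fold, and 3.66% higher and 11.9% lower past 1.5-fold. In this comparison 10 of 14 proliferation genes were lower, with a median of -2.41, or -2.04 with 4 genes at their bound, and Hist1h1b was 0.0272-fold (0.00327 to 0.0993). Without cycling cells the count of genes past 2-fold over poly I:C was 70.

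Interferon genes in the combination had 2 of 14 type I members higher and 3 lower, with a median of -0.09. Of the interferon-gamma and GTPase list 0 of 7 were higher and 3 lower over control, and 0 of 9 and 6 over poly I:C, with a median of -0.92 there. Gbp2 was 0.255-fold (0.125 to 0.465) of control with UMIs in 3 of 11 cells, and its log2 ratio of -1.89 was -1.12 in the marker-rich cells. Cxcl9 was 0.471-fold (0.353 to 0.618) of control, 0.325-fold (0.243 to 0.427) of poly I:C and 0.329-fold (0.248 to 0.429) of phenformin. Its log2 ratios in the marker-rich cells were -0.93, -1.08 and -0.74. In cells thinned to 3000 UMIs, with 3 cells in each library that had poly I:C, the log2 ratio to poly I:C turned to 2.27. Irf7 was 2.11-fold (1.30 to 3.41) of poly I:C. Ifnar1, a chain of the type I interferon receptor, was 124, 121, 97.6 and 63.7 CPM, or 0.512-fold (0.248 to 0.955).

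Sema4a, a semaphorin that costimulates T cells, was 124, 122, 79.7 and 17.4 CPM, or 0.140-fold (0.0283 to 0.420) of control, and had the same direction in the marker-rich cells at -2.25 against -2.53. Cd274 was 0.478-fold (0.248 to 0.847). Cd40 was 0.135-fold (0.0159 to 0.519) of poly I:C, from a low level of 11.6 CPM in the combination. Its poly I:C level rested on cells with some Ccr7 or Fscn1, as given above. Cells with neither were 15 of 26 with poly I:C and 10 of 11 in the combination, and the part of this in the ratio was not tested. The list of genes for uptake and cross-presentation had 5 of 17 higher and 1 lower with phenformin, 2 of 16 and 4 with poly I:C, and 0 of 13 and 6 in the combination. It summed to 5492, 6418, 5171 and 4255 CPM, and to 5126, 4736, 4994 and 4441 CPM in the marker-rich cells. The costimulation and checkpoint list had 0 of 8 higher and 3 lower over control, with a median of -0.53. MHC class I loading had 2 of 16 higher, among them the class Ib gene H2-Q7 at 1.61-fold (1.20 to 2.13), and 1 lower, the immunoproteasome gene Psmb10 at 0.628-fold (0.396 to 0.956). B2m, the class I light chain, was 3597, 3763, 2884 and 2900 CPM. MHC class II had 0 of 11 higher and 2 lower. Most compared MHC class I and class II genes were thus within 1.5-fold of control. Sema4a rests on few UMIs in the combination. Its interval overlaps that of Cxcl9, so these genes are not ranked.

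Genes shared with cDC2 and macrophages were low in the combination. Mgl2, a galactose lectin, was 149, 110, 33.9 and 0 CPM, at most 0.117-fold of control by a floor of 3 counts. The complement gene C3 was 159, 242, 61.7 and 0 CPM, and the oxidase gene Cybb 120, 219, 35.9 and 0 CPM. In the marker-rich cells Mgl2 was 122, 69.9, 33.3 and 0 CPM, C3 69.3, 2.50, 8.33 and 0 CPM, and Cybb 42.2, 16.2, 2.08 and 0 CPM. Lysozyme, Lyz2, was 751, 801, 253 and 122 CPM, or 0.162-fold (0.0994 to 0.250), and 583, 196, 119 and 119 CPM in the marker-rich cells. In plasmacytoid cells Lyz2 was instead highest in the libraries with poly I:C, at 1582 and 1105 CPM. The macrophage list in those cells was also highest there, at 9493 and 8233 CPM, and no difference between kinds is read from this. Of the macrophage list 5 of 8 compared genes were lower than control and 0 higher, of the cDC2 list 4 of 5 were lower and 1, Clec12a, was higher, at 89.0, 99.7, 87.6 and 174 CPM. The C1q limit removed more cells in the combination than elsewhere, and its part in these values was not tested.

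The glycolysis and hypoxia list had 8 of 18 genes lower and 0 higher in the combination, with a median of -0.48. Over all genes 13.8% were lower past 1.5-fold and the median was -0.25. The list summed to 6201 CPM in control and 4318 CPM in the combination, and to 5329 and 4480 CPM in the marker-rich cells. Slc16a3 was 0.0811-fold (0.00971 to 0.300) of control. Hilpda, a hypoxia-induced lipid droplet protein, was 51.2, 65.3, 41.8 and 0 CPM. Among nuclear genes of complex I, 0 of 30 were higher and 1 was lower, with a median of -0.16, the 1 being Ndufa2 at 271, 308, 287 and 151 CPM. Over phenformin alone, 13 of 1844 genes were higher (0.705%) and 224 lower (12.1%) past 2-fold, and 3.42% higher and 16.3% lower past 1.5-fold. There the glycolysis list had 11 of 21 lower and complex I 5 of 32 lower. No complex I gene passed 1.5-fold upward in either comparison, where only 3.47% and 3.42% of all genes did. The 5 of 32 lower is near the 16.3% of all genes. No difference of complex I genes is read from these counts.

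**Figure D5:**
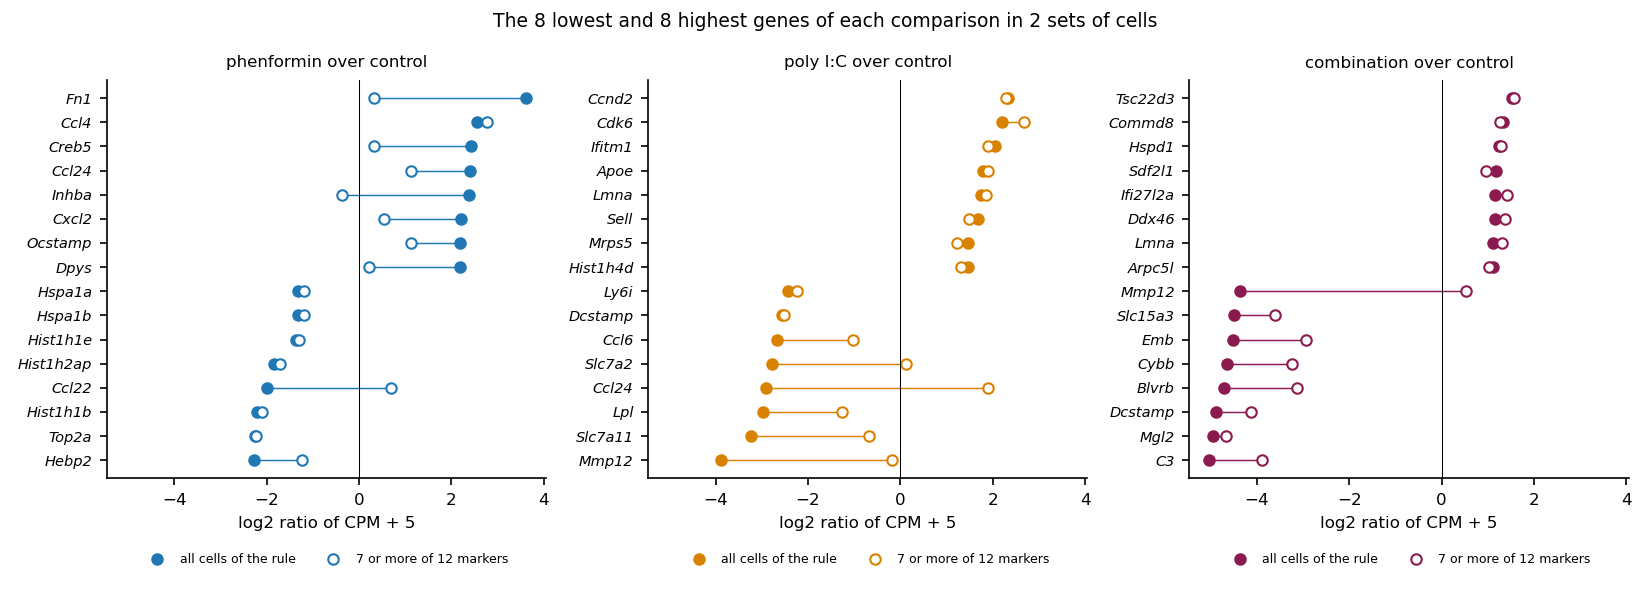
Log2 ratios (CPM plus 5) to control of the 8 highest and 8 lowest genes of each treatment, over all cDC1 (filled) and over those with at least 7 of 12 other markers (open), joined by a line. Ccnd2, Lmna, Tsc22d3 and Top2a lie at similar values in both sets, while Ccl22 and Inhba with phenformin, Ccl24 and Slc7a2 with poly I:C and Mmp12 in the combination change sign.

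The layout also gives how far the combination lay from what the single treatments add up to on the log2 scale. Of 2340 genes, 52 (2.22%) were at least 1 unit above and 195 (8.33%) at least 1 below, with a counting interval that leaves out 0. Hebp2 lay furthest above, by 3.91 (2.35 to 5.48), since both single treatments had low levels. Arid4a, a chromatin-binding protein, was 161, 106, 91.6 and 214 CPM and lay above by 1.76 (1.07 to 2.46). Fam168b, at 90.3, 77.6, 25.9 and 86.8 CPM, lay above by 1.78 (0.73 to 2.82), since poly I:C alone was low. The 5 furthest below were Creb5, Fcgr2b, Clec4n, Cd63 and Ube2c. Creb5, Fcgr2b, Clec4n and Cd63 were highest with phenformin alone, where marker-poor cells were most frequent. Cd63, a tetraspanin of lysosomes, was 43.9, 180, 65.7 and 5.79 CPM over all cDC1, and 6.03, 8.74, 14.6 and 6.62 CPM in the marker-rich cells.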

How the data were processed

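Single-cell libraries of 4 tumours, 1 per treatment, were read from the matrices deposited by the authors. Their values are raw UMI counts per gene and barcode over 27998 features, not normalized, made with Cell Ranger 3.1.0 per the submitters' processing notes, which name mm10 and GRCm38. Any filter after that step is not stated. Positions are from GENCODE vM21, which is on GRCm38. The members, gene lists, tests and limits were chosen with earlier results of these data known.

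The rule was applied to cells that passed limits of 200 genes and 20% mitochondrial UMIs. UMIs of its cells were then added up by library (46, 58, 26 and 11 cDC1 with 819877, 1133403, 502074 and 172748 UMIs) and scaled to CPM. Shares have exact Clopper-Pearson intervals, CPM exact Poisson intervals and ratios exact conditional intervals, all at the 95% level. They cover counting error, and cells were not used as replicates. Log2 ratios use a pseudocount of 5 CPM, which makes the change of low genes smaller. A gene with no UMI in a library gets a bound from 3 counts per library. Treatments were not tested against each other, since each is 1 library. cDC1 and cDC2 were compared with edgeR 4.0.16 in R 4.3.3 (quasi-likelihood test, TMM, filterByExpr, library as a block, Benjamini-Hochberg, threshold 0.05), the pairing being that both kinds come from the same library. DESeq2 1.42.0 was an alternative. The edgeR and ratio steps were tested on simulated counts with known changes. Other steps used Python 3.11.15, pandas 2.3.3, scipy 1.17.1 and matplotlib 3.10.9.

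Genes eligible to be named were, per comparison of treatments, the 8 highest and 8 lowest log2 ratios among those past 2-fold, up to 4 members of each list with the largest ratio and a fixed set of effector genes. Added were the 5 furthest above and 5 furthest below the sum of the single treatments and, between cDC1 and cDC2, the 10 highest and 10 lowest genes with the same direction in 4 of 4 libraries. Gene models named by number, antigen receptor segments, globins, ribosomal protein genes, mitochondrial genes and the genes of the rule were left out of the ranking. From the eligible genes those described were chosen after their values were seen, and a few are not reported here. Alternatives changed the cell limits, the marker minimum, the C1q limit, the maturation limit, depth, scaling, the weight of cells, the pseudocount, the count minimum and the test. Leaving out 1 limit at a time and requiring at least 7 of 12 other markers were alternatives chosen after the data were seen. Of the listed symbols 6 are absent from the features.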

Additional observations from a re-analysis of the deposited data

Results flagged for a closer look

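These genes had a difference in 1 direction for a treatment given alone and in the opposite direction for the same treatment given on top of the other, each past 1.5-fold with an interval that leaves out 1. With 1 library per treatment this contrast was not tested. Values are log2 ratios of cDC1 levels (CPM plus 5), first without and then with the other treatment. For phenformin they were 0.949 and -1.41 for the cyclin Ccnd2, 1.38 and -1.38 for Ifitm1, 0.780 and -0.636 for Lmna, and 0.694 and -1.10 for Ddit4. All 4 genes were highest with poly I:C alone. For phenformin Pdcd1lg2 had 0.840 and -1.59, C3 0.593 and -3.74 and Cd63 1.92 and -2.71. C3, Cd63 and Pdcd1lg2 were highest in the phenformin library, which held 19 of the 32 marker-poor cells, and in the combination C3 had 0 UMIs. Among the marker-rich cells both values of C3 were negative, at -3.31 and -1.41, so the opposite directions were not present there, and those of Cd63 were 0.32 and -0.75 and of Pdcd1lg2 0.26 and -1.27. Ifitm1 had 1.62 and -4.00 in those cells. Arid4a went the other way, at -0.582 and 1.18 for phenformin and at -0.781 and 0.983 for poly I:C. For poly I:C, Btla had -0.813 and 0.585 and Ube2c 0.908 and -3.70, with Ube2c at 0 in the combination.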

How the results depend on the processing

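No paired analysis was possible because each treatment is 1 library, so the 4 treatments share no replicates. Between cDC1 and cDC2 the fit without the library block called 627 genes against 773 with it, and 1305 had an unadjusted p under 0.05. DESeq2 called 461, cDC2 taken by Cd209a and Flt3 gave 302 from 12, 13, 0 and 1 such cells, and a C1q sum of 0 in both kinds 430. Leaving out 1 library gave 294 to 900, with 294 without control, 375 without phenformin, 815 without the combination and 900 without poly I:C. With Cd209a and Flt3 the log2 fold change of Flt3 was -0.14. Of the genes given for this comparison, Irf8 and Plet1 lost their call without control, and Wdfy4 and Slfn2 lost theirs with Cd209a and Flt3.

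Shares of cDC1 in control, phenformin, poly I:C and combination moved with the limits. With both Xcr1 and Clec9a found they were 0.509%, 0.550% and 0.227% in the first 3, with a C1q sum of 0 0.476%, 0.734% and 0.212%, and without any Ccr7 or Fscn1 0.427%, 0.752% and 0.227%. Thinned to 3000 UMIs they were 0.297%, 0.337%, 0.0540% and 0.0485%. Without the C1q limit control had 1.30% and the combination 0.508%, and with at least 7 of 12 markers phenformin had 0.715%.

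Over control, counts of genes past 2-fold with phenformin, with poly I:C and in the combination were 9, 9 and 7 in cells thinned to 3000 UMIs, which leaves few cells, 250, 433 and 380 with minimums of 20 CPM and 10 UMIs, and 26, 58 and 94 with 100 CPM and 60 UMIs. Against poly I:C and against phenformin, the combination had 4 and 12 (thinned), 322 and 418, and 64 and 126. A C1q sum of 0 gave 266 for poly I:C, at least 7 markers gave 126 for the combination over control and 97 over phenformin, both Xcr1 and Clec9a gave 117 over phenformin, and no cycling cells gave 70 over poly I:C. Beyond the single treatments thinning left 6.

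Of the ratios named for each comparison and past 1.5-fold, these changed sign on the log2 scale, and the cause was not tested. With phenformin and at least 7 markers: Ccl22 0.68, Inhba -0.38, Sirpa -1.98, Ccl5 -1.54, C3 -3.31, Csf1r -0.46, Fcgr2b -1.04 and Cybb -1.15. With both Xcr1 and Clec9a found: Hspa1a 0.92, Inhba -0.44, Sirpa -1.97, Ccl5 -1.64, Csf1r -1.49, Fcgr2b -0.82 and Cybb -2.38. Under other limits phenformin had Ccl22 0.47 (3 or more marker UMIs), Hist1h2ap 0.52 and Ccl4 -0.066 (no cycling cells), Hspa1b 1.69 (C1q sum of 0) and Ccl4 -0.19 (no Ccr7 or Fscn1). With poly I:C, Ccl24 was 1.90 and Slc7a2 0.12 with at least 7 markers, Ccl24 3.22, Slc7a2 0.32 and Gbp2 0.047 with both markers found, and Cd40 -0.44 without Ccr7 or Fscn1. In the combination Mmp12 was 0.54 with at least 7 markers and 0.51 with both found. Beyond the single treatments Cd63 was 0.17 with both found. In thinned cells poly I:C had Hist1h4d -2.53, Rab43 2.98, Btla 0.22, Cd40 -2.53, Hist1h1b -5.29 and Ube2c -5.98. Thinned, the combination had Ddx46 -3.93 and Samhd1 0.28 over control, Hist1h1b 4.54 and Cxcl9 2.27 over poly I:C, and Ube2c 0.97 and Fam168b -2.67 beyond the single treatments. Of the other alternatives for single genes and lists, 2579 kept their direction and side, 380 moved and 42 lost their call.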
